A study of Mus musculus with 62 samples.

Results

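The liver of mice 6 weeks after they received cachexia-inducing melanoma cells (CAC) was compared with that of mock-injected mice (Con) of the same week. All libraries of these groups were used, 5 CAC and 5 Con, 10 of the 62 libraries of a study that also sampled 2, 4 and 8 weeks and a melanoma line that does not cause cachexia (NCAC). All groups were female mice injected at 2 months of age, and liver RNA was sequenced after selection of mRNA. The labels call the strain C57BL/6J, whereas the design text calls the mice NCI Ath/nude, and the extraction protocol names a lung carcinoma line (LLC) that no group received. Both melanoma lines are named only by whether they cause cachexia. Each library, called a biological replicate by the submitters, was taken as 1 animal. Where it is not a separate animal, the p-values measure a spread that may be technical. The 5 NCAC libraries of week 6 are given beside the 2 groups.

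Cachexia is a wasting of muscle and fat that accompanies some tumours, and the liver is among the organs that respond. Hepatocytes answer the cytokine interleukin-6 through STAT3, together with C/EBP factors and NF-kB, by secreting acute phase proteins. In the same cells the detoxifying and lipid-oxidising enzymes are set by nuclear receptors such as PPARA, and major urinary protein genes by growth hormone acting through STAT5. In bulk liver, fewer cells of a type and less RNA per cell cannot be told apart.

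Values are TPM, length-corrected shares of each library's transcripts, and the depth behind them is unknown. Differences are CAC minus Con means of log2(TPM + 1), which understate the change of low genes, and are given with a standard error (SE). A gene was called at an adjusted p under 0.05 (limma, Benjamini-Hochberg over 12160 genes, those reaching 1 TPM in 5 or more libraries). In these terms 608 genes were higher in CAC (5.00% of those tested) and 1254 lower (10.3%). At least 2-fold were 166 (1.37%) and 159 (1.31%) of them. The median of all genes tested was -0.12. The tally of lower genes fell to 472 without CAC replicate 1 and to 727 without Con replicate 5. The direction of the excess depended on the scaling. With median-of-ratios rescaling 1034 were higher and 692 lower, and with quantile normalization 1178 and 777, each of which brought the median of all genes to -0.01. They numbered 1256 and 455 when libraries were rescaled without the acute phase genes (median 0.01) and 509 and 4116 when rescaled without the 20 highest genes (median -0.25).

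**Figure D1:**
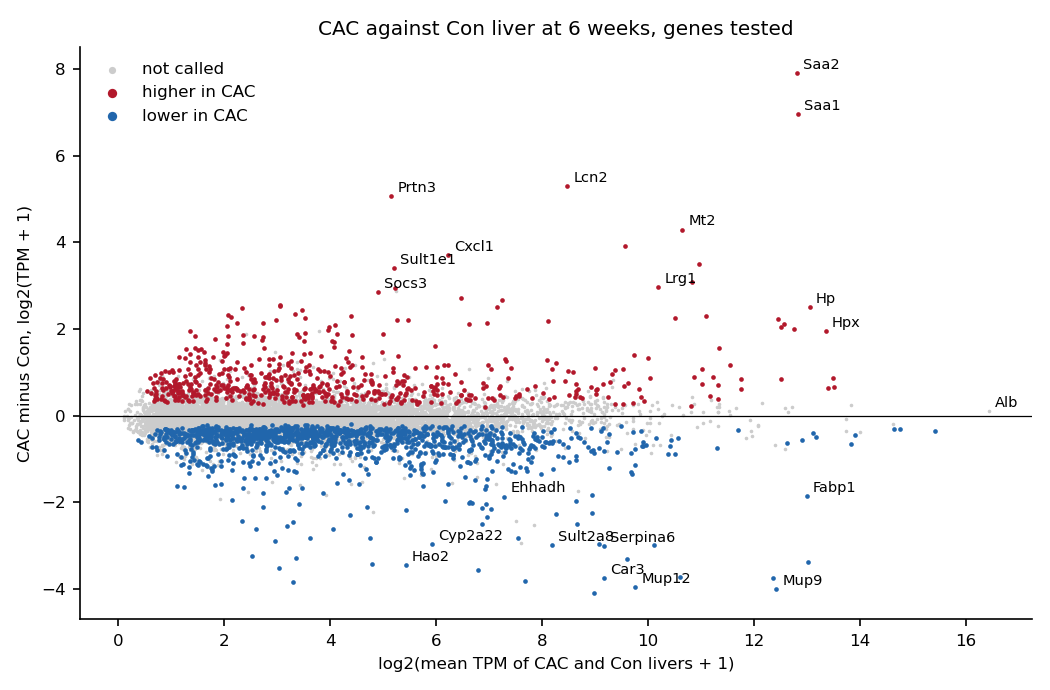
Difference of CAC and Con liver at 6 weeks on the log2(TPM + 1) scale (vertical axis) against the mean level (horizontal axis), 1 point for each of the 12160 genes tested, with red for the 608 called higher and blue for the 1254 called lower. The serum amyloid transcripts Saa2 and Saa1 lie far above the rest, and a row of Mup genes with Car3 lies lowest.

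Some libraries stood apart. CAC replicate 1 held 146 TPM of the pancreatic transcript Ctrb1 and 77.96 TPM of the muscle transcript Acta1. Con replicate 4 held 174 TPM of Ctrb1, and Con replicate 5 held 486 TPM of Acta1. The other 7 libraries had at most 6.66 TPM of Ctrb1 and 1.25 TPM of Acta1. The summed level of 15 pancreas markers ranged over 8.07 to 494 TPM in CAC and 14.6 to 833 TPM in Con, and that of 6 adipocyte markers over 8.74 to 297 TPM and 13.6 to 164 TPM. Below, counts of some lists that change by over 1.5 times without such libraries are also given on that setting. It leaves out all 12 libraries of the series with at least 100 TPM of Ctrb1 or 10 TPM of Acta1, which leaves 4 CAC and 3 Con. A count given without a second value is not thereby stable to it. On that setting 471 genes were higher and 429 lower. The part of these other tissues in the results was not tested beyond that. Con replicate 1 differed in another way, with acute phase transcripts well above those of the other Con livers. Albumin (Alb) was abundant in all, at 102541, 84485, 99367, 98923 and 72171 TPM in CAC and 90517, 73221, 80554, 101023 and 81135 TPM in Con. The T cell transcripts Cd3e, Cd3d, Cd8a and Trac were under 1 TPM in all 10 libraries.

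Named genes are described below with all 10 libraries. Every list count of CAC against Con at 6 weeks stands beside 5.00% of all genes higher and 10.3% lower. Of the 92 named genes that were called, 21 lost their call without the 12 libraries, namely Arg1, Axin2, Cebpa, Cyp1a2, Cyp2e1, Eif4ebp3, Fabp1, Fads1, Ghr, H2-D1, Igfbp1, Lcat, Mup14, Mup3, Nnmt, Pygl, Retnlg, Sds, Spp1, Stfa2l1 and Sult1e1. When 1 of the 10 libraries was left out in turn, Lcat lost its call in 9 cases, Cebpa in 8, and Pygl in 2 (CAC replicate 1 and Con replicate 1). Eif4ebp3 lost its call without CAC replicate 1, Arg1 without Con replicate 5, and Axin2 without CAC replicate 1 or without Con replicate 4 or 5. With quantile normalization Arg1 lost its call, as did Pygl when libraries were rescaled without the acute phase genes and Lcat when rescaled without the 20 highest genes, with no filter or with the replicate number as a block. Without Con replicate 1 the difference of Saa1 became 7.93, that of Saa2 9.14, that of Lcn2 5.94 and that of Prtn3 5.54.

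Of the 15 largest increases, 6 promoters that hold a match to a motif of an inflammatory factor are shown, 4 of acute phase genes with those of Socs3 and Cxcl1. The promoters of Mt2 (C/EBP) and Apcs (STAT) also hold a match and are not shown. Others of the 15, such as Lrg1, hold no match. Each sequence shown is the 250 bases before the transcript start in RefSeq (GRCm38.p6, the mm10 assembly), 5' to 3' on the gene's strand. Motifs searched on both strands were TTGCNNAA for C/EBP, TTCNNNGAA for STAT and, by name, the degenerate NF-kB consensus, patterns picked with these results in view. The pair of NF-kB matches of Cxcl1 overlap each other, on opposite strands, and no match shares bases with one of another motif in these windows. Capitals mark a C/EBP match in the first 4 sequences, a STAT match in that of Socs3 and NF-kB matches in that of Cxcl1.
Saa2 (chr7:46751583-46751832, plus strand): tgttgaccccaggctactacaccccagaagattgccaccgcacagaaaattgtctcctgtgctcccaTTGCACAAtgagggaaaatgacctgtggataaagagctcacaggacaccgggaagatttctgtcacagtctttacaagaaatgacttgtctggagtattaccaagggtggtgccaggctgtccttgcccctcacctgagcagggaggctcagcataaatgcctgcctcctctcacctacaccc
Saa1 (chr7:46742981-46743230, minus strand): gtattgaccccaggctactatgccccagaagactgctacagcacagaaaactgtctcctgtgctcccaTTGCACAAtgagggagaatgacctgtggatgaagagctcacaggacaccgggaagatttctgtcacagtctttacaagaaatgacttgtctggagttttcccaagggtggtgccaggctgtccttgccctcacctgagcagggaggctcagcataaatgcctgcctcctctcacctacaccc
Lcn2 (chr2:32387740-32387989, minus strand): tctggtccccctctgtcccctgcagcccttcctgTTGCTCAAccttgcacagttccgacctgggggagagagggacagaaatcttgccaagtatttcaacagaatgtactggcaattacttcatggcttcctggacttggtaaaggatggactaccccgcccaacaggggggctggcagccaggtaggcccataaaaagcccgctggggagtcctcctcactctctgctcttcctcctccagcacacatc
Orm2 (chr4:63362199-63362448, plus strand): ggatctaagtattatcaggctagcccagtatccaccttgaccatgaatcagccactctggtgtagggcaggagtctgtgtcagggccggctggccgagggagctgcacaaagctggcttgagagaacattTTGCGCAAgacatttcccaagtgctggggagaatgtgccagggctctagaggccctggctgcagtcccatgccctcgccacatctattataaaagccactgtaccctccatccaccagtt
Socs3 (chr11:117969367-117969616, minus strand): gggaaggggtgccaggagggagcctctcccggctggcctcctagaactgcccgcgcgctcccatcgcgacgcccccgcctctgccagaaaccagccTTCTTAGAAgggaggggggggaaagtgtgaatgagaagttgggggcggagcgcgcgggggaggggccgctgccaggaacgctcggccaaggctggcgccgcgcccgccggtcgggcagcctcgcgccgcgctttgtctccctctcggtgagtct
Cxcl1 (chr5:90890995-90891244, plus strand): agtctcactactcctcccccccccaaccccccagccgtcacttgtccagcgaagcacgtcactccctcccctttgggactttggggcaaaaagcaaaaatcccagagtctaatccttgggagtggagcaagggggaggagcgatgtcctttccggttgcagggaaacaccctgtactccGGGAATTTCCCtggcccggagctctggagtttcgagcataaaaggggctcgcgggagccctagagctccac

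The Saa1 and Saa2 windows were 94.8% identical over an alignment, with the same C/EBP match TTGCACAA in both. Of the 15 genes that rose most, 14 had a promoter in the table, and a C/EBP match was in 5 of them (35.71%), against 730 of 9077 tested genes with a promoter (8.04%). A STAT match was in 2 of the 14 (14.29%) against 566 of the 9077 (6.24%), and an NF-kB match in 1 (7.14%) against 400 (4.41%). The NF-kB share moved with the letters searched: the narrower pattern GGGNNTTTC was in 2 of the 14 (14.29%) against 315 of the 9077 (3.47%). Of the 15 genes that fell most, 9 had a promoter, and 1 of these (11.11%) held a C/EBP match and 0 a STAT or NF-kB match. These matches are a description of the letters in the windows.

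The acute phase transcripts rose together. Of the 31 acute phase genes listed, all measured, 29 were called higher and 0 lower, where 5.00% of all genes were higher. Their median difference was 2.04, against -0.12 over all genes. Together they made up 179745, 98274, 144531, 136648 and 96943 TPM in CAC livers, against 35556, 22967, 24589.5, 24266 and 20700.5 TPM in Con livers, and 26814 to 32449 TPM in NCAC livers. The lowest CAC liver was thus above the highest Con liver.

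The serum amyloid A genes Saa1 and Saa2 encode apolipoproteins that join high-density lipoprotein in inflammation. The copies are close in sequence and their reads may be shared, so the sum is given first, 47899, 14608, 41125, 19857 and 17498 TPM in CAC livers, against 3027, 59.3, 120.3, 57.4 and 67.9 TPM in Con livers. Con replicate 1 was far above the other 4 Con livers and still below every CAC liver. Taken singly Saa2 rose by 7.91 ± 1.02 (adjusted p = 5.47e-08) and Saa1 rose by 6.97 ± 0.85 (adjusted p = 1.83e-08). In NCAC livers the sum was 221, 1164, 96.3, 106 and 427 TPM, which overlapped Con. Saa1 was higher in CAC than in NCAC by 6.13 ± 0.85 (adjusted p = 3.41e-07).

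Lcn2, which binds bacterial iron carriers, had 1081, 402, 893, 552 and 480.2 TPM in CAC livers, against 96.9, 11.7, 17.5, 8.102 and 4.43 TPM in Con livers. The groups did not overlap, and Lcn2 rose by 5.29 ± 0.57 (adjusted p = 5.93e-10). Orm2, an alpha-1-acid glycoprotein gene on chromosome 4, had 1865, 1072, 1413, 1533 and 1112 TPM in CAC and 247, 95.3, 116, 44.2 and 47.1 TPM in Con, and rose by 3.92 ± 0.41 (adjusted p = 3.61e-10). Its neighbour Orm1 rose by 2.23 ± 0.22 (adjusted p = 7.55e-11). Con replicate 1 was the highest Con liver for Saa1, Saa2, Lcn2 and Orm2.

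Some acute phase genes differed by less and more evenly. Lbp, the plasma protein that binds bacterial lipopolysaccharide, had 175, 136, 187, 161 and 129 TPM in CAC livers, against 55.7, 27.2, 38.5, 33.4 and 27.5 TPM in Con livers, and rose by 2.12 ± 0.18 (adjusted p = 1.77e-12), the smallest p of all acute phase genes. Haptoglobin (Hp), which binds free haemoglobin, had 18156, 12077, 16637, 15009 and 10172 TPM in CAC and 3876, 1636, 2451, 2719 and 2308 TPM in Con and rose by 2.495 ± 0.23 (adjusted p = 1.70e-11). Haemopexin (Hpx), which binds free haem, had 20594, 13454, 17491, 18089.9 and 13348 TPM in CAC and 5627, 3919, 4394, 4619 and 3091 TPM in Con and rose by 1.94 ± 0.18 (adjusted p = 1.12e-11). No CAC liver overlapped a Con liver for Lbp, Hp or Hpx. Apcs, the serum amyloid P pentraxin, rose by 3.09 ± 0.36 (adjusted p = 3.97e-09), and the leucine-rich glycoprotein gene Lrg1 rose by 2.96 ± 0.28 (adjusted p = 2.41e-11).

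**Figure D2:**
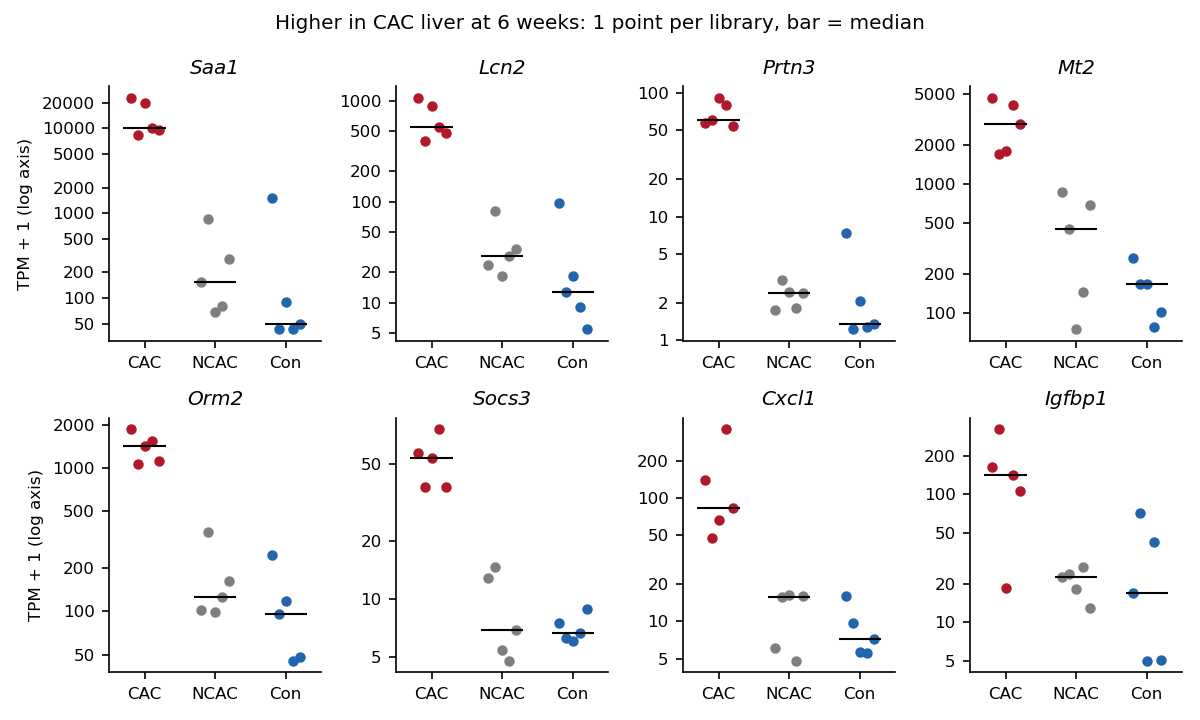
TPM + 1 on a log axis in each library of CAC, NCAC and Con liver at 6 weeks for 8 genes higher in CAC, with 1 point per library and a bar at the median of 5. For Igfbp1 1 CAC liver lies among the Con livers, and for Saa1, Lcn2, Prtn3 and Orm2 the highest Con point is replicate 1.

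Among 21 tested genes of interleukin-6 signalling and the STAT3 response, 11 were called higher and 2 lower, with a median of 0.74. Over all genes 5.00% were higher and 10.3% lower. Socs3, the feedback inhibitor of this pathway, had 56.4, 37.3, 53.1, 74.9 and 37.2 TPM in CAC livers, against 6.58, 5.32, 5.11, 5.69 and 7.89 TPM in Con livers, without overlap, and rose by 2.85 ± 0.29 (adjusted p = 9.67e-11). Osmr, a receptor subunit for oncostatin M, averaged 2.39 ± 0.659 TPM in CAC and 0.609 ± 0.171 TPM in Con (SD, n = 5 each) and rose by 1.06 ± 0.16 (adjusted p = 1.70e-06). Stat3 itself averaged 41.6 ± 4.41 TPM in CAC and 21.8 ± 2.83 TPM in Con and rose by 0.90 ± 0.14 (adjusted p = 2.16e-06). Cebpd, a C/EBP factor induced in inflammation, rose by 1.89 ± 0.32 (adjusted p = 2.12e-05), while Cebpa, the C/EBP factor of the resting hepatocyte, fell by 0.66 ± 0.24 (adjusted p = 0.0495). The call of Cebpa ended with a pseudocount of 0.1, without the filter, and on the median-of-ratios, quantile and acute-phase-free scalings.

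Of 18 NF-kB genes 2 were higher and 2 lower, with a median of -0.03, where 5.00% of all genes were higher and 10.3% lower. The higher genes were Tnfrsf1a, a receptor for tumour necrosis factor, which rose by 1.16 ± 0.13 (adjusted p = 3.09e-09), and Icam1, an adhesion molecule, which rose by 0.72 ± 0.17 (adjusted p = 0.00222). Of 13 chemokines 2 were higher. Cxcl1, which attracts neutrophils, had 139, 46.5, 65.6, 363 and 81.7 TPM in CAC livers, against 15.2, 8.64, 4.71, 4.55 and 6.21 TPM in Con livers, and rose by 3.70 ± 0.46 (adjusted p = 2.74e-08). Cxcl14 averaged 13.2 ± 6.34 TPM in CAC and 1.42 ± 0.944 TPM in Con and rose by 2.53 ± 0.36 (adjusted p = 6.18e-07). Of 34 interferon-stimulated genes 0 were higher and 1 lower, under both shares, and of 7 genes of MHC class II presentation 0 were called either way.

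Plasma protein genes outside the acute phase list were split. Of 26 complement genes 9 were higher and 2 lower, and of 25 coagulation genes 11 were higher and 4 lower. The shares over all genes were 5.00% higher and 10.3% lower. C3, the central complement component, averaged 7519 ± 931 TPM in CAC and 4152 ± 315 TPM in Con and rose by 0.85 ± 0.12 (adjusted p = 9.24e-07). C4b rose by 0.96 ± 0.13 (adjusted p = 1.46e-07), and Serping1, the inhibitor of the first complement component, rose by 0.74 ± 0.10 (adjusted p = 1.81e-07). The kininogen gene Kng1 rose by 1.17 ± 0.15 (adjusted p = 3.59e-08) and Cpb2, which slows clot breakdown, rose by 1.06 ± 0.12 (adjusted p = 7.10e-10). Transferrin (Trf), the iron carrier, rose by 0.63 ± 0.11 (adjusted p = 3.72e-05), and Ambp, the precursor of a protease inhibitor, rose by 0.84 ± 0.10 (adjusted p = 2.24e-08). Hepcidin (Hamp), the hormone that limits iron release, averaged 2826 ± 1070.4 TPM in CAC and 2366 ± 539 TPM in Con, a difference of 0.19 ± 0.81 that was not called (adjusted p = 0.896).

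Prtn3, which encodes proteinase 3 of neutrophil granules (chromosome 10, 79874476 to 79883174, mm10), was among the 5 largest increases. It had 55.96, 59.3, 91.2, 79.3 and 53.05 TPM in CAC livers, against 6.31, 0.219, 1.08, 0.275 and 0.335 TPM in Con livers, and rose by 5.08 ± 0.52 (adjusted p = 1.90e-10). Con replicate 1 was the highest Con liver. Elane, the neutrophil elastase gene, had 0.586, 0.617, 1.22, 0.501 and 0.711 TPM in CAC and 0.114, 0.0514, 0.0536, 0 and 0 TPM in Con and did not reach the filter. The granule genes Mpo and Ctsg were at or under 0.0489 TPM in all 10 libraries, and Ngp, Camp and Ltf at or under 0.473 TPM. S100a9, of the neutrophil cytosol, had 23.4, 18.3, 12.97, 9.12 and 23.1 TPM in CAC and 11.8, 9.88, 8.87, 5.47 and 10.01 TPM in Con, and its partner S100a8, named after its values were seen, 8.33, 7.22, 4.07, 4.35 and 7.903 TPM in CAC and 5.15, 3.95, 3.91, 2.06 and 2.59 TPM in Con, with overlap in both and neither called (adjusted p = 0.185 and 0.211). Of 11 neutrophil markers 5 passed the filter, of which Prtn3, Retnlg and Stfa2l1 were higher. Retnlg had 5.48, 3.03, 1.36, 0.926 and 2.65 TPM in CAC and 0.7775, 0.467, 0.324, 0.174 and 0.434 TPM in Con. Stfa2l1 had 2.01, 1.26, 0.706, 1.11 and 1.70 TPM in CAC and 1.14, 0.229, 0.357, 0.1277 and 0.1275 TPM in Con. Both lay near the 1 TPM of the filter, with most Con values under it. Neither was called without the 12 libraries. The summed level of all 11 was 89.2 to 112 TPM in CAC, against 8.202 to 25.8 TPM in Con, most of it Prtn3 in CAC.

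Of 22 genes that glucocorticoids induce, metallothioneins among them, 7 were called higher and 0 lower, with a median of 0.16. The share of all genes called higher was 5.00%. The higher genes numbered 2 without the 12 libraries named above and 4 without CAC replicate 1, without Con replicate 1 or without Con replicate 5. Mt2, a zinc-binding metallothionein, had 4685, 1715, 1799, 4113 and 2932 TPM in CAC livers, against 268, 167, 168, 76.4 and 101 TPM in Con livers, and rose by 4.29 ± 0.63 (adjusted p = 1.03e-06). Its neighbour Mt1 averaged 3654 ± 1208 TPM in CAC and 329.8 ± 123 TPM in Con and rose by 3.49 ± 0.54 (adjusted p = 3.94e-06). Both are on chromosome 8 and are close in sequence. Sult1e1, which inactivates oestrogens by sulfation, had 185, 27.2, 34.7, 57.1 and 23.1 TPM in CAC and 16.03, 0.533, 2.98, 11.4 and 0.510 TPM in Con and rose by 3.41 ± 0.83 (adjusted p = 0.00298). Igfbp1, which binds insulin-like growth factors and is repressed by insulin, had 162, 322, 17.4, 142 and 105 TPM in CAC and 15.8, 70.2, 3.97, 41.1 and 4.02 TPM in Con. CAC replicate 3 lay within the Con range, and Igfbp1 rose by 2.70 ± 0.71 (adjusted p = 0.00655).

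Other large increases were in genes that did not all belong to the same list. Nnmt was of the one-carbon list, Chac1 of the ATF4 list, Ctsl of the autophagy and lysosome list and Junb of the immediate early list. The counts of these lists are given further on. Isyna1, which makes inositol phosphate from glucose phosphate, had 92.2, 43.4, 109, 59.6 and 27.4 TPM in CAC livers, against 9.27, 5.54, 7.65, 6.19 and 5.81 TPM in Con livers, and rose by 2.95 ± 0.32 (adjusted p = 5.28e-10). Eif4ebp3, which restrains translation initiation, had 523, 293, 135, 196 and 162 TPM in CAC and 14.05, 64.9, 54.4, 41.4 and 26.4 TPM in Con and rose by 2.67 ± 0.78 (adjusted p = 0.0156). Nnmt, which methylates nicotinamide, averaged 443 ± 163 TPM in CAC and 110.2 ± 61.3 TPM in Con and rose by 2.19 ± 0.54 (adjusted p = 0.00353). Chac1, a glutathione-degrading target of ATF4, rose by 2.13 ± 0.43 (adjusted p = 0.000354), and the lysosomal protease gene Ctsl rose by 1.33 ± 0.23 (adjusted p = 3.62e-05). The stress-induced transcription factor Junb rose by 2.20 ± 0.39 (adjusted p = 5.66e-05).

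The major urinary protein genes, a cluster on chromosome 4 whose products carry pheromones, had the lowest median difference of the lists. Of 18 tested members 14 were called lower and 0 higher, where 10.3% of all genes were lower, with a median of -3.35. Without the 12 libraries 9 were called. Copies may share reads, so members are not separable and the sum over all 21 listed is given. It was 2049, 6104, 2323, 591 and 12548 TPM in CAC livers, against 16433, 48798, 64849, 13764 and 74681 TPM in Con livers and 49568 to 83621 TPM in NCAC livers. Every CAC liver was below every Con liver, by a narrow margin between CAC replicate 5 and Con replicate 4. Con replicates 1 and 4 were well below the other 3 Con livers.

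Singly, Mup9 had 321, 1201, 341, 132 and 1845 TPM in CAC livers, against 3932, 10023, 18716, 3098 and 15338 TPM in Con livers, and fell by 4.01 ± 0.78 (adjusted p = 0.000214). Mup3 fell by 2.98 ± 0.62 (adjusted p = 0.000517) and Mup20, a male pheromone gene, fell by 2.11 ± 0.44 (adjusted p = 0.000517). Among the 15 largest decreases, 10 were Mup genes, with Mup14 lowest at -4.10 ± 0.94 and Mup2 highest at -3.32 ± 0.76. Growth hormone receptor (Ghr) averaged 60.2 ± 14.3 TPM in CAC and 99.96 ± 11.2 TPM in Con and fell by 0.75 ± 0.16 (adjusted p = 0.00104). Igf1, the main growth hormone target, differed by -0.14 ± 0.13 and was not called (adjusted p = 0.455).

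**Figure D3:**
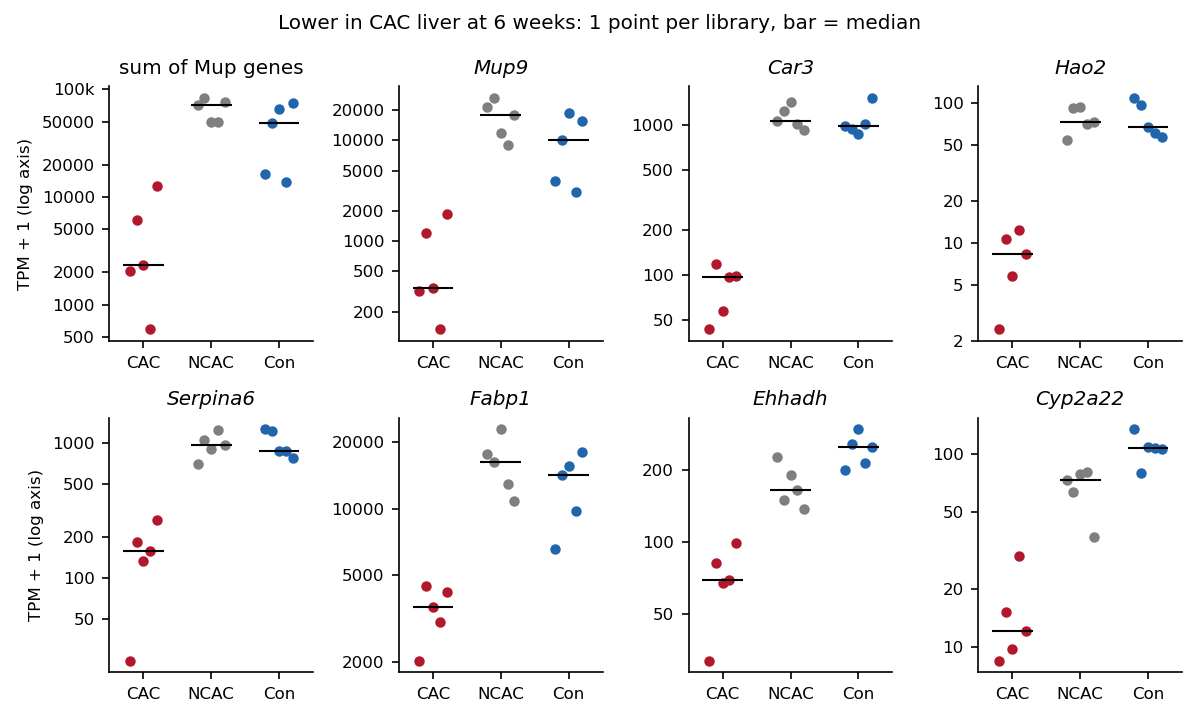
TPM + 1 on a log axis in each library of CAC, NCAC and Con liver at 6 weeks for the sum of 21 Mup genes and 7 genes lower in CAC, with 1 point per library and a bar at the median of 5. All 5 CAC points lie below all Con points in each panel, while the NCAC points overlap the Con points.

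Outside the Mup cluster, Car3, a carbonic anhydrase abundant in hepatocytes, had 42.3, 117, 56.2, 95.8 and 97.5 TPM in CAC livers, against 981, 934, 875, 1019 and 1521 TPM in Con livers. It fell by 3.75 ± 0.62 (adjusted p = 1.29e-05). Hao2, a peroxisomal hydroxyacid oxidase, had 1.41, 9.71, 4.75, 11.3 and 7.32 TPM in CAC and 108, 95.1, 66.2, 59.9 and 56.1 TPM in Con and fell by 3.46 ± 0.45 (adjusted p = 7.90e-08). Serpina6 encodes the globulin that carries corticosteroids in plasma. It had 23.5, 184, 134, 159 and 269 TPM in CAC and 1261, 1212, 876, 864 and 771 TPM in Con, with CAC replicate 1 far below the other CAC livers, and fell by 3.01 ± 0.60 (adjusted p = 0.000254). The aspartic protease gene Ctse averaged 0.0682 ± 0.0546 TPM in CAC and 9.49 ± 3.15 TPM in Con and fell by 3.25 ± 0.79 (adjusted p = 0.00312).

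Hao2 also belongs to the genes expressed differently in male and female liver. Of 27 such genes 10 were lower and 0 higher, and without the 12 libraries 5 were lower. The female-predominant P450 genes Cyp2b13 and Cyp2b9 were among them. Cyp2b13 had 12.9, 37.8, 35.5, 35.2 and 182 TPM in CAC livers, against 340.1, 266, 185, 411 and 347 TPM in Con livers, without overlap, and fell by 2.84 ± 0.47 (adjusted p = 1.28e-05). Cyp2b9 fell by 1.84 ± 0.28 (adjusted p = 2.24e-06). The 2 genes are close copies.

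Of 40 genes of fatty acid oxidation, ketogenesis and the PPARA response, 31 were lower and 0 higher, with a median of -0.80. After median-of-ratios rescaling 25 were lower, and without the 12 libraries 12, with a median of -0.62. Ehhadh, a peroxisomal enzyme of fatty acid oxidation, had 30.8, 80.7, 66.5, 67.95 and 98.2 TPM in CAC livers, against 198, 254, 294, 212 and 247 TPM in Con livers, and fell by 1.87 ± 0.28 (adjusted p = 1.35e-06). Aldh3a2, which oxidises fatty aldehydes, had 19.4, 51.3, 35.8, 34.3 and 64.6 TPM in CAC and 122, 159.9, 155, 156 and 184 TPM in Con and fell by 1.99 ± 0.29 (adjusted p = 8.57e-07). CAC replicate 1 was the lowest CAC liver for both. The mitochondrial acyl-CoA dehydrogenase genes fell too, Acadl by 0.77 ± 0.12 (adjusted p = 9.86e-06) and Acadm by 0.73 (adjusted p = 2.13e-05).

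Cyp4a10, a PPARA target that hydroxylates fatty acids, fell by 2.52 ± 0.47 (adjusted p = 0.000124). Ppara itself averaged 36.2 ± 15.95 TPM in CAC and 82.1 ± 20.5 TPM in Con, a difference of -1.24 ± 0.47 that was not called (adjusted p = 0.0644). Cpt1a, which admits long-chain fatty acids to mitochondria, differed by -0.42 ± 0.28 (adjusted p = 0.291), and by -0.13 without CAC replicate 3. Fabp1, the abundant fatty acid carrier of hepatocytes, had 2030.3, 4455, 3568, 3062 and 4161 TPM in CAC livers, against 6549, 14212, 15663, 9730.1 and 18161 TPM in Con livers, without overlap, and fell by 1.86 ± 0.41 (adjusted p = 0.00119).

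Of 31 genes of fatty acid synthesis, triglyceride and lipid droplets, 10 were lower and 0 higher, but 2 without the 12 libraries. Hepatic lipase (Lipc) averaged 59.6 ± 23.3 TPM in CAC and 181 ± 25.4 TPM in Con and fell by 1.69 ± 0.28 (adjusted p = 1.89e-05). The fatty acid desaturase Fads2 averaged 184 ± 103 TPM in CAC and 795 ± 249 TPM in Con and fell by 2.25 ± 0.49 (adjusted p = 0.000909), and Fads1 fell by 0.94 ± 0.22 (adjusted p = 0.00184). Srebf1, a transcription factor of fatty acid synthesis, differed by -0.66 ± 0.28 and was not called (adjusted p = 0.0894). Of 30 cholesterol genes 1 was lower and 1 higher, neither above the shares over all genes, 10.3% lower and 5.00% higher. The lower one, Sc5d, a late enzyme of cholesterol synthesis, fell by 1.24 ± 0.29 (adjusted p = 0.00217). The higher one was Lcat, which esterifies plasma cholesterol (difference 0.27 ± 0.09, adjusted p = 0.0413), and it was not called without the 12 libraries.

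Of 41 drug-metabolising P450 genes 17 were lower and 1 higher, with a median of -0.61. Over all genes 10.3% were lower and 5.00% higher. Cyp2a22 had 7.47, 14.1, 8.78, 28.4 and 11.03 TPM in CAC livers, against 133, 78.03, 107, 106 and 104 TPM in Con livers, without overlap, and fell by 2.97 ± 0.36 (adjusted p = 1.25e-08). Cyp2c37 fell by 1.21 ± 0.21 (adjusted p = 2.96e-05), Cyp2e1 fell by 0.63 ± 0.14 (adjusted p = 0.00148) and Cyp1a2 fell by 0.96 ± 0.24 (adjusted p = 0.00391). Reads of Cyp2a and Cyp2c copies may be shared. Of 50 conjugation and NRF2 target genes 25 were lower and 0 higher, and without the 12 libraries 14 were lower. Sult2a8, a sulfotransferase, averaged 72.4 ± 47.7 TPM in CAC and 507 ± 151 TPM in Con and fell by 2.99 ± 0.44 (adjusted p = 1.12e-06). The glucuronosyltransferase-family gene Ugt3a1 fell by 1.58 ± 0.23 (adjusted p = 1.12e-06). Gsta2, a glutathione transferase, fell by 2.17 ± 0.35 (adjusted p = 7.91e-06), whereas the difference from NCAC was not called (-0.74 ± 0.35, adjusted p = 0.174).

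Of 25 bile acid genes 7 were lower and 0 higher, and 4 without the 12 libraries. Slco1b2, an uptake carrier for bile acids, averaged 233 ± 43.5 TPM in CAC and 489.5 ± 27.02 TPM in Con and fell by 1.08 ± 0.22 (adjusted p = 0.000309). Cyp7b1, of the alternative route of synthesis, fell by 1.36 ± 0.28 (adjusted p = 0.000357). Cyp7a1, the rate-limiting enzyme of the main route, had 82.1, 87.2, 9.17, 88.3 and 91.99 TPM in CAC and 47.6, 237, 344, 147 and 261 TPM in Con. The groups overlapped, and the difference of -1.59 ± 0.73 was not called (adjusted p = 0.122), and it was -0.97 without CAC replicate 3.

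Of 45 genes of amino acid catabolism 13 were lower and 2 higher, and without the 12 libraries 5 and 1. Their differences ranged over -1.32 to 1.24 with a median of -0.17, and the lower members are not described singly. Sdsl, related to serine dehydratase, rose by 1.24 ± 0.23 (adjusted p = 0.000106), and Sds, the serine dehydratase itself, rose by 1.08 ± 0.30 (adjusted p = 0.0102). Of 17 urea cycle and glutamine genes 1 was higher and 2 lower, close to the shares over all genes, 5.00% higher and 10.3% lower. The higher one, Arg1, the last enzyme of the cycle, rose by 0.70 ± 0.19 (adjusted p = 0.00781). Arg1 was not called without the 12 libraries. Otc, an earlier enzyme of the cycle, averaged 145 ± 29.8 TPM in CAC and 248 ± 24.99 TPM in Con and fell by 0.79 ± 0.12 (adjusted p = 3.86e-06). Of 30 genes of glycolysis, glycogen and fructose 3 were lower, a share close to that of all genes. Ugp2, which makes UDP-glucose, fell by 0.94 ± 0.19 (adjusted p = 0.000260), the branching enzyme Gbe1 fell by 0.83 ± 0.21 (adjusted p = 0.00351) and the liver phosphorylase Pygl fell by 0.54 ± 0.17 (adjusted p = 0.0227). Of 21 genes of gluconeogenesis and insulin signalling 2 were higher and 1 lower. Pck1, a gluconeogenic enzyme, had 1653, 1979, 1441, 1949 and 2085 TPM in CAC and 1813, 1640.1, 1293, 2477 and 1554 TPM in Con, a difference of 0.07 ± 0.29 (adjusted p = 0.886). G6pc, also of this list, differed by -1.12 and was not called, with 2 CAC livers below every Con liver.

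Transcripts of the mitochondrial genome summed to 156218, 163348, 154413, 173642 and 210969.9 TPM in CAC livers, against 237963, 243503, 235794, 198274 and 200451 TPM in Con livers and 177526 to 205539 TPM in NCAC livers. Only CAC replicate 5 lay within the Con range. Of 13 such genes 8 were lower, but 0 after median-of-ratios rescaling and 1 without CAC replicate 1. Of 76 nuclear-encoded respiratory chain genes 10 were lower, where 10.3% of all genes were lower. Their median was -0.09, against -0.12 over all genes, and became 0.04 after median-of-ratios rescaling. Ndufs1, a subunit of complex I, averaged 43.3 ± 8.26 TPM in CAC and 66.98 ± 5.54 TPM in Con and fell by 0.64 ± 0.12 (adjusted p = 0.000239).

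Cytosolic ribosomal protein transcripts summed to 21630.4, 24642, 22334, 22722 and 20195 TPM in CAC livers, against 19351, 17748, 17801, 18991 and 16878 TPM in Con livers, without overlap. Of 78 genes 8 were called higher and 0 lower, with a median of 0.27. The count ranged over 0 with the 20 highest genes removed from the scaling, 29 on the median-of-ratios scale and 49 with quantile normalization. It was 0 without Con replicate 5, 1 without CAC replicate 1, 4 without Con replicate 4 and 2 without the 12 libraries.

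**Figure D4:**
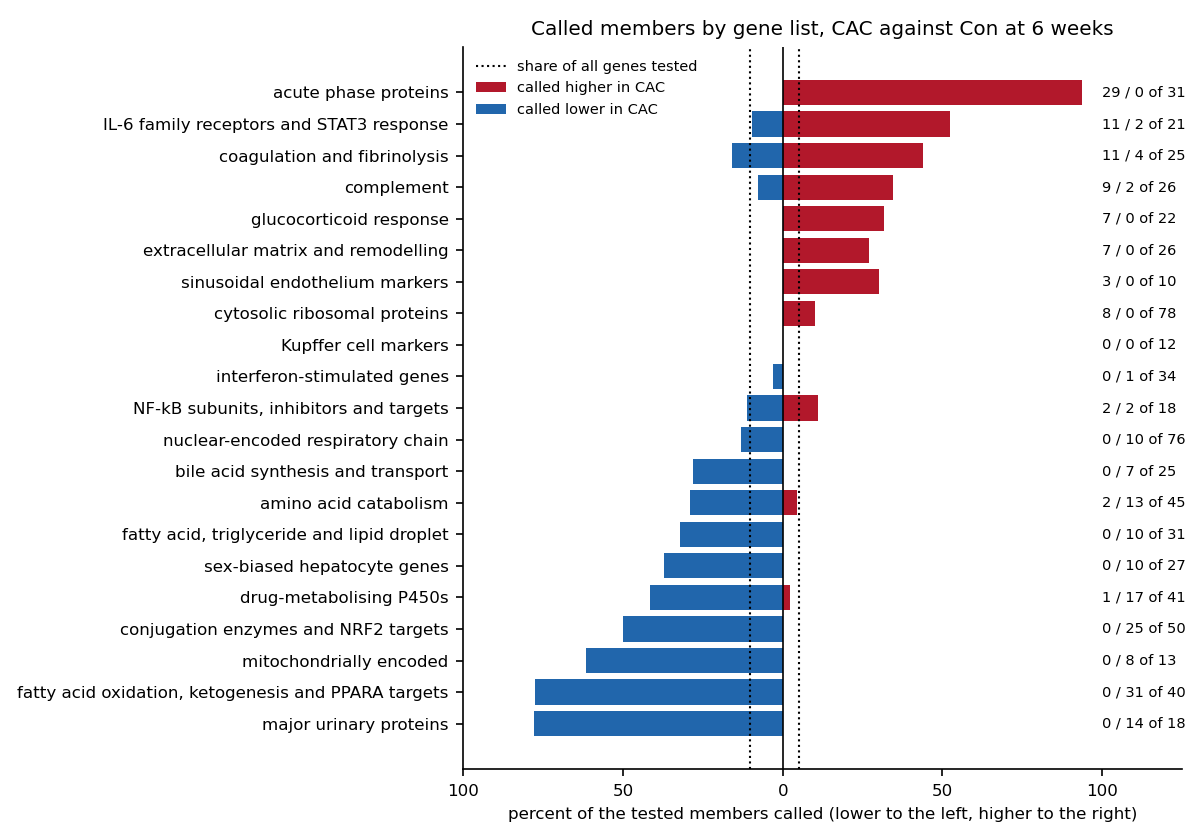
Percent of the tested members of 21 gene lists that were called higher (right, red) or lower (left, blue) in CAC than in Con liver at 6 weeks, with counts of higher and lower members at the right edge. Dotted lines mark the shares over all genes tested, 5.00% higher and 10.3% lower, and the acute phase list and the Mup and fatty acid oxidation lists reach furthest from them.

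Markers of the other cells of the liver moved unevenly. Of 12 Kupffer cell markers, the resident macrophages, 0 were called, and their sum was 373 to 916 TPM in CAC and 494 to 898 TPM in Con. Of 10 markers of sinusoidal endothelium 3 were higher, and 1 without the 12 libraries. Clec4g, a lectin of these cells, had 107, 96.3, 106, 58.7 and 73.6 TPM in CAC livers, against 33.6, 41.4, 37.9, 34.4 and 49.7 TPM in Con livers, without overlap, and rose by 1.12 ± 0.22 (adjusted p = 0.000255). Of 9 B and plasma cell markers 3 were lower, which were 0 without CAC replicate 1 or without Con replicate 4. The sum of the B and plasma cell markers was 23.2 to 193 TPM in CAC and 75.4 to 438 TPM in Con. Car1, an erythroid carbonic anhydrase, had 0.0785, 1.55, 1.05, 1.599 and 4.76 TPM in CAC and 8.54, 9.63, 10.03, 8.43 and 10.7 TPM in Con and fell by 2.10 ± 0.28 (adjusted p = 9.62e-08), the 1 called of 6 erythroid markers.

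Of 26 genes of extracellular matrix and remodelling 7 were higher and 0 lower, where 5.00% of all genes were higher. Timp1, an inhibitor of matrix proteases, had 6.35, 2.13, 3.02, 3.63 and 1.25 TPM in CAC livers, against 0.473, 0.373, 0.222, 0.238 and 0.714 TPM in Con livers, and rose by 1.503 ± 0.23 (adjusted p = 2.14e-06). Sparc, a matrix-binding glycoprotein, averaged 65.1 ± 18.8 TPM in CAC and 29.7 ± 7.74 TPM in Con and rose by 1.10 ± 0.29 (adjusted p = 0.00596), and fibronectin (Fn1) rose by 0.61 ± 0.16 (adjusted p = 0.00832). Spp1, encoding osteopontin and counted among the cholangiocyte markers, rose by 0.94 ± 0.21 (adjusted p = 0.000954). Inhbb, a subunit of activin B, averaged 3.51 ± 1.91 TPM in CAC and 0.707 ± 0.184 TPM in Con and rose by 1.28 ± 0.26 (adjusted p = 0.000309), and Fst, the activin antagonist follistatin, rose by 1.07 ± 0.29 (adjusted p = 0.00919). Transcripts of the hormones Fgf21 and Gdf15 differed by -0.34 ± 0.30 and -0.11 ± 0.26 and were not called (adjusted p = 0.431 and 0.793).

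For 20 genes reported whatever their result, an exact two-sided permutation test over all 252 assignments of the 10 libraries was also run, with a smallest possible p of 0.00794. Saa1, Saa2, Lcn2, Orm1, Lbp, Socs3, Mt2 and Car3 reached it, since their groups did not overlap. Igfbp1 had an exact permutation p of 0.0397, higher in 4 of 5 CAC livers than in any Con liver. The other 11 had exact permutation p-values from 0.0873 for Cyp7a1 to 0.992 for Angptl4, which regulates lipoprotein lipase and differed by 0.01 ± 0.35. The exact permutation p of G6pc was 0.103.

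CAC and NCAC livers of week 6 were compared as a test of whether the 2 tumours' differences from Con differ, since the same Con libraries enter both. By limma, 796 genes were higher in CAC than in NCAC (6.55%) and 674 lower (5.54%). NCAC minus Con itself had 0 called genes of 12160, with 1094 at an unadjusted p under 0.05. The acute phase list held 29 of 31 genes higher in CAC than in NCAC, and the Mup list 14 of 18 lower. Lcn2 differed from NCAC by 4.31 ± 0.57 (adjusted p = 1.14e-07), Prtn3 by 4.90 ± 0.52 (adjusted p = 1.09e-09) and Hao2 by -3.46 ± 0.45 (adjusted p = 9.77e-08). Mt2 in NCAC stood at 872, 448, 73.6, 145 and 684 TPM, and CAC exceeded it by 3.17 ± 0.63 (adjusted p = 0.000217). Ctse was lower in CAC than in Con with no called difference from NCAC. It differed from NCAC by -0.80 ± 0.79 (adjusted p = 0.599), against -3.25 ± 0.79 from Con. Of the mitochondrially encoded genes 0 differed from NCAC.

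The 6-week difference was set beside those of the weeks before and after, whose libraries are separate. At 4 weeks CAC had 158 genes above Con (1.30%) and 74 below (0.609%), and at 8 weeks 714 (5.87%) and 4291 (35.3%). Of the 608 higher genes of week 6, 145 were also called at 4 weeks, which is 23.85% of the 6-week list and 91.77% of the 4-week list, and 405 at 8 weeks (66.61% and 56.72%). Of the 1254 lower genes, 56 were also called at 4 weeks (4.47% and 75.68%) and 905 at 8 weeks (72.17% and 21.09%). The test of the difference between weeks itself called 0 genes for 6 against 4 weeks, with 626 at an unadjusted p under 0.05, and 0 for 6 against 8 weeks, with 2189. Without CAC replicate 3 of week 8 it called 754 genes as higher at 6 than at 8 weeks, and 373 without Con replicate 5 of week 8.

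Single genes went with different steps. Saa1 differed from Con by 1.98 ± 0.85, 6.40 ± 0.85, 6.97 ± 0.85 and 7.78 ± 0.79 at 2, 4, 6 and 8 weeks, so the 6-week value lay within 1 SE of both neighbours. Lbp differed by 0.11 ± 0.18, 1.46 ± 0.18, 2.12 ± 0.18 and 2.29 ± 0.17. Car3 differed by -0.13 ± 0.62, -1.38 ± 0.62, -3.75 ± 0.62 and -6.11 ± 0.57, and its 6-week value minus its 4-week value was -2.37 ± 0.87 (adjusted p = 0.757). Mup9 differed by -0.53 ± 0.78, -1.21 ± 0.78, -4.01 ± 0.78 and -5.74 ± 0.72, with 6 minus 4 weeks at -2.79 ± 1.11 (adjusted p = 0.791). Of the Mup list 0 genes were called lower at 4 weeks, 14 at 6 and 15 at 8. For fatty acid oxidation these counts were 0, 31 and 34, and for acute phase genes called higher 24, 29 and 29. A count that differs between weeks is no test of a difference between them, and the test of that difference called none of these genes.

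**Figure D5:**
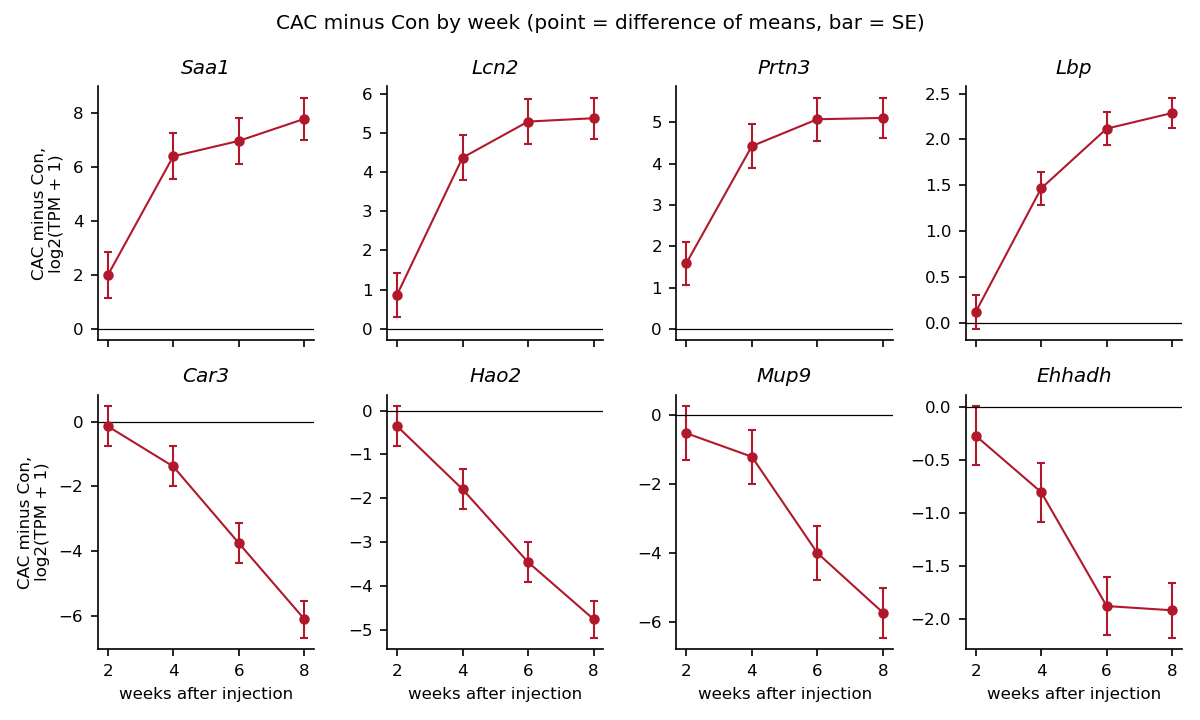
CAC minus Con difference on the log2(TPM + 1) scale (vertical axis) at 2, 4, 6 and 8 weeks after injection (horizontal axis) for 8 genes, with SE bars and 5 libraries per group, 7 for CAC at 8 weeks. The upper 4 genes have most of their difference by 4 weeks, and the lower 4 reach larger negative values at 6 and 8 weeks than at 4.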

How the data were processed

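Liver RNA was extracted with Trizol and sequenced on an Illumina NovaSeq from stranded TruSeq mRNA preparations, per the labels' protocols. The authors deposited TPM for 47643 gene symbols in 62 libraries, whose totals averaged 1e+06. The build was mm10, per the submitters' processing notes. Read numbers, aligner and quantifier: not given in the sources used here. Depth and counting error are therefore unknown, and no count model was used. The number of libraries limits the precision.

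From the deposited TPM, log2(TPM + 1) of the 12160 genes reaching 1 TPM in 5 or more libraries was fitted in limma 3.58.1 (R 4.3.3). The model held 12 group means across the 62 libraries, and variances were moderated by empirical Bayes along a trend in mean level. Columns were matched to groups by name (0 unmapped). Tested were CAC with Con, CAC with NCAC, and the CAC minus Con difference of week 6 against those of weeks 4 and 8. From the same fit came NCAC with Con at week 6 and CAC with Con at weeks 2, 4 and 8. Single genes had an exact permutation test. The procedure was tested on simulated data.

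Members and the 55 gene lists were chosen with earlier results of these data known. Named were the 15 largest increases and decreases averaging 5 TPM or more in a group that kept their sign when any library was left out, up to 4 members per list with the smallest p, 20 genes fixed for report at any outcome, and the 5 largest differences each way of the other comparisons. Not every gene this rule names is reported here. Mup, Saa, Cyp2 and metallothionein copies may share reads, whose assignment the table leaves unstated. Promoter motifs were chosen after values were seen, the NF-kB consensus in place of a stricter pattern, with a narrower pattern as an alternative.

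Alternatives were a pseudocount of 0.1, no filter, a mean of at least 5 TPM, median-of-ratios and quantile scaling, scaling without the 20 highest genes or the acute phase list, robust moderation, a fit of the contrast's weeks, a minimum log2 difference of 1, a replicate block, and leaving libraries out. Positions are from GENCODE vM21 and promoters from RefSeq. Biopython 1.88 aligned the promoters, and matplotlib 3.10.9 (Python 3.11.15, NumPy 2.4.6) drew the figures.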

Additional observations from a re-analysis of the deposited data

Results flagged for a closer look

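Each of the 105 named genes was examined for a library far from the other 4 of its group, by Dixon's criterion at 95%. Of 210 gene and group pairs 13 were marked, and chance marks about 1 in 20. Con replicate 1 was far above the other Con livers for Saa1 (1488 TPM, next 87.9 TPM), Saa2 (1539 TPM, next 32.4 TPM), Ambp (2967 TPM, next 2468 TPM) and Stfa2l1 (1.14 TPM, next 0.357 TPM), and far below them for Fads2 (393 TPM, next 807 TPM). CAC replicate 3 was far below the other CAC livers for Cyp7a1 (9.17 TPM, next 82.1 TPM), Chac1 (0.982 TPM, next 9.01 TPM), Arg1 (2296 TPM, next 3240.1 TPM) and Angptl4 (23.9 TPM, next 54.5 TPM). CAC replicate 1 was highest for Sparc (98.3 TPM, next 60.8 TPM) and CAC replicate 5 for Igf1 (205 TPM, next 137 TPM). Con replicate 5 was highest for Car3 (1521 TPM, next 1019 TPM) and Con replicate 2 for Angptl4 (78.6 TPM, next 44.7 TPM). No cause was tested for these libraries.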

How the results depend on the processing

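Replicate numbers did not pair the libraries. With each gene's group mean subtracted, same-numbered CAC and Con livers correlated at -0.13 to 0.22, 2 of 5 pairs over 0.1. Of the CAC livers 2 correlated best with the Con liver of their own number. With the replicate number as a block, CAC had 541 genes above and 986 below Con, 732 above and 607 below NCAC, and 0 between weeks. Counts of higher and lower genes against Con were 1034 and 692 on the median-of-ratios scale, 1178 and 777 with quantile normalization, and 1256 and 455 rescaled without the acute phase list. Lower genes numbered 4116 rescaled without the 20 highest genes, 2208 in a fit of week 6 only and 429 without the 12 libraries. With a minimum log2 difference of 1 they were 166 and 159 against Con and 193 and 156 against NCAC. Leaving out 1 library gave 434 to 637 higher and 472 to 1398 lower against Con, and 572 to 789 higher and 364 to 750 lower against NCAC. Of the 1862 calls, 796 held in each of these, 371 higher and 425 lower, and 0 reversed. Against NCAC, higher genes were 412 at a mean of at least 5 TPM and 1788 rescaled without the acute phase list, while lower genes were 416 on that scaling, 2160 without the 20 highest genes, 426 without the libraries with at least 100 TPM of Ctrb1 and 445 without the 12. The test of 6 against 4 weeks called 2 genes lower with a pseudocount of 0.1, and with 1 library left out 0 to 5 higher and 0 to 9 lower. That of 6 against 8 weeks called 1 higher at a mean of at least 5 TPM, and with 1 library left out 0 to 754 higher and 0 to 17 lower. Of the 20 genes tested by permutation 9 had an exact p under 0.05, and 8 to 10 when 1 library was left out. Differences near 0 changed sign: Alb was 0.00 by quantile normalization and -0.055 rescaled without the 20 highest genes. Angptl4 was -0.14 on that scaling, -0.058 without the Ctrb1 libraries and -0.12 without the 12, and -0.11 to 0.27 when 1 library was left out. Fgf21 was 0.19 without the 12 libraries and Hamp -0.072 by quantile normalization. Igf1 was 0.012 by quantile normalization and 0.022 rescaled without the acute phase list. Pck1 was -0.11 by quantile normalization and -0.078 without the 20 highest genes. With 1 library left out, Pck1 ranged over -0.027 to 0.21 and Gdf15 over -0.33 to 0.0067. The causes were not tested. Of the 105 named genes none that was called reversed under these settings. TPM hold no read numbers, so low genes such as Elane rest on an unknown number of reads.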

Other observations

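Other gene groups of the hepatocyte were read from the same fit, in which 5.00% of all genes were higher and 10.3% lower. Of 18 genes of MHC class I presentation 1 was higher and 1 lower. Their summed level was 3967 to 5423 TPM in CAC livers and 5453 to 6241 TPM in Con livers, so CAC lay below Con by a narrow margin. The sum was not computed on another scaling. Their median difference was -0.0044, against -0.1225 over all genes. The gene called higher was H2-D1, a class I heavy chain gene, which rose by 1.03 ± 0.24 (adjusted p = 0.00210). H2-D1 was not called without the 12 libraries. Of 30 genes of endoplasmic reticulum folding and secretion 1 was higher and 1 lower. The higher one was Xbp1, a transcription factor of secretory cells, with 161, 121, 131, 198 and 149 TPM in CAC livers, against 96.9, 102, 93.00, 81.6 and 95.4 TPM in Con livers, and it rose by 0.67 ± 0.14 (adjusted p = 0.000479). Of 28 autophagy and lysosome genes 5 were higher and 1 lower, and among them Map1lc3b, of the autophagosome membrane, rose by 0.64 ± 0.14 (adjusted p = 0.000919). Of 14 apolipoprotein genes 3 were higher and 1 lower, and Apon rose by 0.66 ± 0.12 (adjusted p = 9.95e-05). Of 19 periportal genes 3 were higher and 4 lower. Of 22 pericentral genes 7 were lower, but 0 without the 12 libraries, and Axin2, a target of Wnt signals, fell by 0.62 ± 0.18 (adjusted p = 0.0157).

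The circadian clock had 0 higher and 1 lower of 21, cell cycle and DNA replication 0 and 1 of 28, and proteasome 0 and 3 of 33. These lists were above neither the 5.00% of all genes called higher nor the 10.3% called lower. The p53 targets had 2 higher and 1 lower of 17. Immediate early genes had 3 higher and 0 lower of 17, and ATF4 targets 4 higher and 1 lower of 17. Methionine cycle and one-carbon enzymes had 2 higher and 5 lower of 18, and the iron, haem and metal list 6 and 2 of 25.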
